A study of Mus musculus with 12 samples.

Results

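Complement factors and regulators were followed in the mouse kidney as 9 genes, C3, C4b, Cfb, Cfd, Cfi, C7, Serping1, Cd55 and Cd59a, taken by name from the 57490 genes of the count table. Of these 9, 7 passed a filter on low counts (filterByExpr of edgeR) that left 17431 genes for testing, while Cfb and Cfd did not. Kidney mRNA of 12 male mice on the BKS background was sequenced at 13 weeks of age, with 1 library per mouse and 4 mice in each of 3 groups. Ctrl mice were non-diabetic db/m, labelled wild-type and described by the supplier's protocol as heterozygotes (db/+). Model mice were diabetic db/db (BKS.Cg-Dock7m +/+ Leprdb/JNju), which carry 2 copies of a leptin receptor mutation and were enrolled for a high random blood glucose. YHY mice were the same db/db line and received a water extract of Yiqi Huoxue Yangyin Decoction, a herbal preparation, at 6.24 g/mL by gavage each day for 4 weeks, while Ctrl and Model received the same volume of purified water. The sequenced mice are labelled by this concentration alone, and their dose group in the study is not given in the sources used here. The sample labels name kidney as whole tissue, and the series text names renal cortex. The libraries held between 24415658 and 33276634 counts.

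Complement is a cascade of blood and tissue proteins that is started by antibody and C1q, by lectins, or by slow turnover of C3 itself. All routes meet at the cleavage of C3, and the terminal factors then assemble a pore in the target membrane. Soluble inhibitors and proteins anchored in the cell membrane hold the cascade in check on host cells. The liver supplies most circulating complement, but kidney tubule, glomerular and immune cells also make several of these proteins, and complement deposits are known from diabetic kidneys.

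Values per mouse are given as CPM, the TMM-scaled counts relative to the library total, and levels are compared between genes only as FPKM, the same CPM per kilobase of the gene length in the count table. A gene is described as called where its Benjamini-Hochberg adjusted P over all 17431 genes was below 0.05 in edgeR's quasi-likelihood test, fitted to all 12 mice. In db/db kidneys without treatment, the membrane-bound inhibitor Cd59a rose 2.15-fold and Cd55, another membrane-bound inhibitor, fell 2.51-fold, whereas the other 5 tested members were not called. Model against Ctrl, the comparison for the changes that come with diabetes, therefore had 1 member of 7 called higher, beside 19.6% of all genes tested, and 1 called lower, beside 18.5%. YHY against Model, the comparison for the treatment, had 0 members called higher, beside 5.63% of all genes, and 0 called lower, beside 7.62%, by edgeR. At an unadjusted P below 0.05 in edgeR that comparison held 1 member, C7, beside 4989 of the 17431 genes. By DESeq2 it had 1 member called, again C7, beside 3123 of 30103 genes. YHY against Ctrl, which places the treated mice beside the non-diabetic ones, had 2 members called higher (C7 and Cd59a), beside 26.1% of all genes, and 1 called lower (Cd55), beside 24.2%. These shares of members are read from 7 genes and are not far from those of all genes. The median log2 fold change of the 7 members was 0.04, -0.24 and 0.25 in these 3 comparisons, beside 0.04, 0.02 and 0.10 over all genes. The comparisons share mice, since Model mice enter Model against Ctrl and YHY against Model and Ctrl mice enter both comparisons with Ctrl, so their values stand side by side and are not separate evidence.

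**Figure D1:**
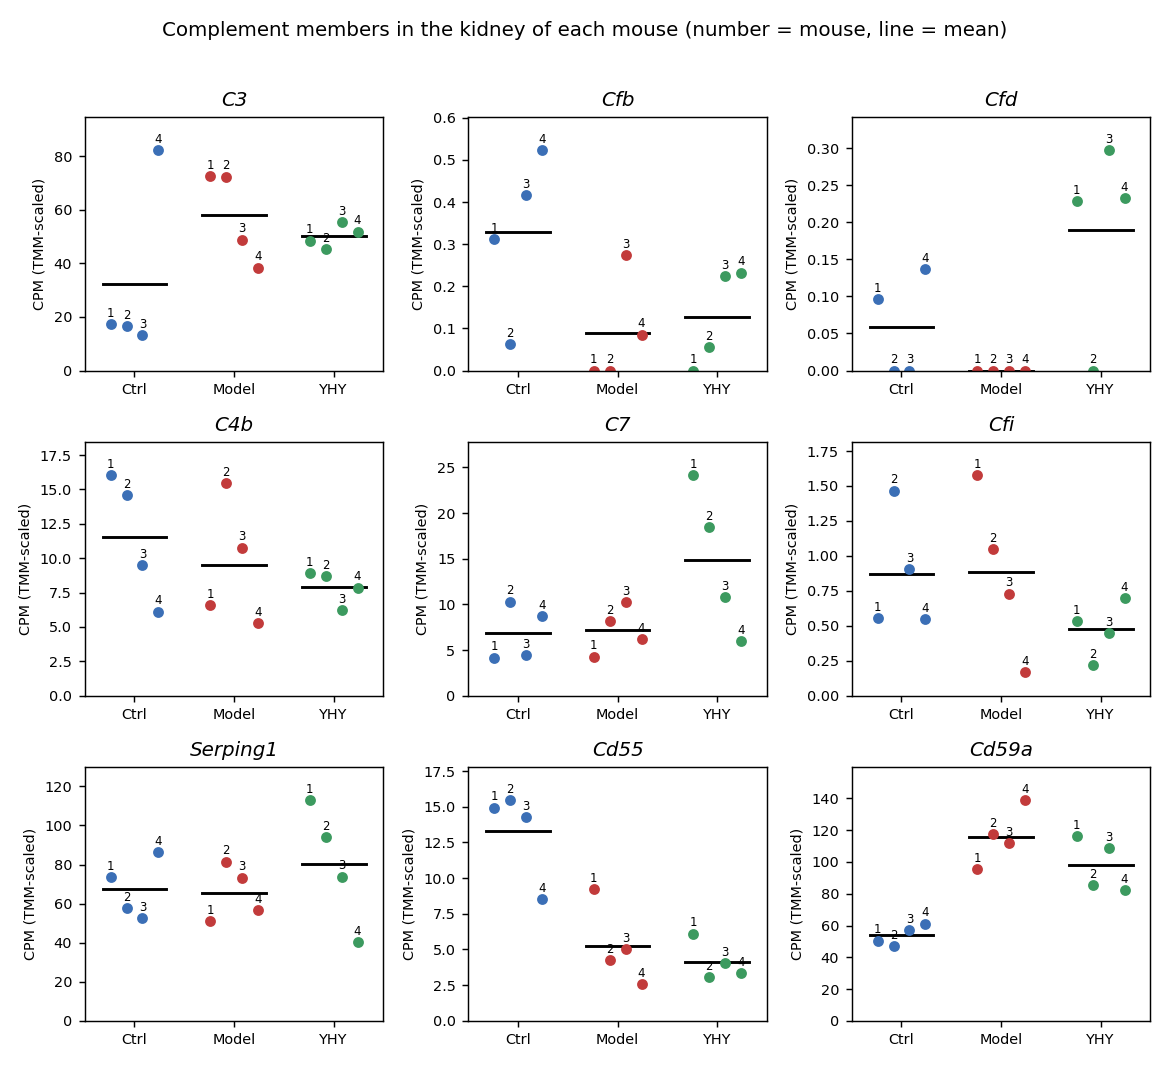
CPM of the 9 members in each of the 12 mice, by group on the x axis, with 1 panel and 1 y scale per gene, the number of the mouse at each point and a line at the mean of the 4 mice. Cd59a is higher and Cd55 lower in db/db mice, and C3 is low in Ctrl 1 to Ctrl 3 and high in Ctrl 4.

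Several features of the libraries bear on all of these values. Transcripts of the mitochondrial genome took 18.4% to 22.7% of the counts in Ctrl, 41.2% to 58.9% in Model and 53.8% to 64.6% in YHY, so the groups differ in how much of each library was left for other genes. With TMM scaling the median log2 fold change of all genes in Model against Ctrl was 0.04, with mitochondrial transcripts removed before scaling it was also 0.04, with upper-quartile scaling 0.14 and with library size alone -0.39, so each fold change is relative to that choice. Under library size alone the genes called in Model against Ctrl split into 1547 higher and 5667 lower (21.4% higher), beside 3412 higher and 3219 lower (51.5% higher) with TMM, 3380 and 3276 (50.8% higher) with mitochondrial transcripts removed and 4025 and 2622 (60.6% higher) with upper-quartile scaling, and in YHY against Ctrl into 2365 higher and 5977 lower (28.4% higher), beside 4547 and 4215 (51.9% higher) with TMM, 4617 and 4151 (52.7% higher) with mitochondrial transcripts removed and 5232 and 3610 (59.2% higher) with upper-quartile scaling. The direction of the Cd55 and Cd59a differences between db/db and Ctrl was the same under each scaling tried. The mice of a group were not uniform. Among 12854 genes with a mean count of at least 50, the genes for which a mouse was the highest of its group by 2-fold or more, and those for which it was the lowest, numbered 4 and 4 for Ctrl 1, 9 and 60 for Ctrl 2, 3 and 5 for Ctrl 3 and 21 and 52 for Ctrl 4. They numbered 12 and 68 for Model 1, 6 and 2 for Model 2, 1 and 10 for Model 3 and 4 and 24 for Model 4, and 100 and 30 for YHY 1, 51 and 58 for YHY 2, 13 and 23 for YHY 3 and 116 and 56 for YHY 4. Model 1 also had the lowest mitochondrial share of the db/db mice, at 41.2% beside 53.4% or more in the others. The fold changes of C3, which depend most on Ctrl 4, are given with and without that mouse.

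The libraries carried the markers of the labelled tissue. The proximal tubule gene Slc27a2 averaged 654 FPKM over all mice and the loop of Henle gene Umod 156 FPKM. Lepr, the gene of the db mutation, lay between 4.84 and 11.7 CPM in Ctrl, 2.79 and 8.27 CPM in Model and 4.34 and 16.6 CPM in YHY, and the groups overlapped. The mutation is known to alter splicing, so counts over the whole gene do not check the genotype.

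Per length, the members spanned a wide range of levels. In Ctrl, Cd59a (29.8 ± 3.57 FPKM, mean ± SD, n = 4) and Serping1 (29.0 ± 6.62) were the most abundant and did not differ beyond their spread. C3 followed at 6.30 ± 6.48 FPKM, a mean and a place that rest on Ctrl 4 (16.0 FPKM, beside 2.58 to 3.39 in the other 3 Ctrl mice, where Cd55 was at 2.94 to 3.18), then Cd55 (2.74 ± 0.664), C7 (2.58 ± 1.14) and C4b (2.03 ± 0.806), which lay within each other's spread, and Cfi (0.391 ± 0.195). Cfb and Cfd averaged 0.116 and 0.0631 FPKM. In Model the order by mean was Cd59a (64.0 ± 9.89 FPKM), Serping1 (28.2 ± 6.12), C3 (11.3 ± 3.34), C7 (2.70 ± 0.964), C4b (1.68 ± 0.807), Cd55 (1.08 ± 0.582) and Cfi (0.397 ± 0.265), and Cd59a then stood clear of Serping1. In YHY, Cd59a (54.2 ± 9.27 FPKM), Serping1 (34.5 ± 13.4), C3 (9.76 ± 0.833) and C7 (5.55 ± 3.01) came before C4b (1.39 ± 0.210), Cd55 (0.854 ± 0.283) and Cfi (0.214 ± 0.0894).

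The 2 members called in Model against Ctrl are both membrane-bound inhibitors, and their promoters are shown because they moved in opposite directions in db/db kidneys. Cd55, or decay-accelerating factor, breaks up the enzymes that cleave C3, and Cd59a blocks assembly of the membrane pore. The sequences are 300 bases from RefSeq, assembly GRCm38.p6, written in the direction of transcription from 250 bases before to 50 bases after the start, at chr1:130462695-130462994 on the minus strand for Cd55 and at chr2:104095551-104095850 on the plus strand for Cd59a. Of the 9 members, 5 matched the promoter table by symbol (C3, Cfd, C7, Cd55 and Cd59a) and C4b, Cfb, Cfi and Serping1 did not.
Cd55: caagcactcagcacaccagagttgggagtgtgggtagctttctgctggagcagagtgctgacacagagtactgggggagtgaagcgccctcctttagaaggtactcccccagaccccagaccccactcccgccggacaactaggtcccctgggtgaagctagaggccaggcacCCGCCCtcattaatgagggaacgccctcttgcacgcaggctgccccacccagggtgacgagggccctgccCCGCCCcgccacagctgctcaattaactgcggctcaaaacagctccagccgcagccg
Cd59a: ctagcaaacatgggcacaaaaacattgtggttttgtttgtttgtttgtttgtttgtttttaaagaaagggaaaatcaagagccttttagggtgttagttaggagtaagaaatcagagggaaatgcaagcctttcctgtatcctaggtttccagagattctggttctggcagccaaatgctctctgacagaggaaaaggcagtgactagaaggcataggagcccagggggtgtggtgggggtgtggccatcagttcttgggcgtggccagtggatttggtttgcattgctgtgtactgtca
Capitals mark matches, on either strand, to 6 motifs: a C/EBP-type motif TTGCGNAA (present in 0.798% of 32851 promoters of the same length), an NF-kB-type motif of 10 letters (8.46%), a STAT-type motif TTCNNNGAA (8.3%), the GC box GGGCGG (35.7%), the TATA box TATAAA (13.6%) and the CCAAT box CCAAT (37.4%). None of the marked matches in the printed sequences overlapped another. The Cd55 window held the GC box on the reverse strand at 77 and at 7 bases before the start, and the Cd59a window held none of the 6. Its base composition also differed, with 63.3% G or C for Cd55 and 45.7% for Cd59a.

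Cd55 (ENSMUSG00000026399, chr1:130366764-130390481 in GRCm39, minus strand) measured 14.9, 15.4, 14.3 and 8.51 CPM in Ctrl 1 to Ctrl 4, 9.21, 4.24, 5.02 and 2.57 CPM in Model 1 to Model 4, and 6.11, 3.04, 4.06 and 3.37 CPM in YHY 1 to YHY 4. Every db/db mouse was below Ctrl 1, Ctrl 2 and Ctrl 3, and the only overlap between Ctrl and Model was Ctrl 4, which lay just under Model 1. The means were 13.3 ± 3.22, 5.26 ± 2.82 and 4.14 ± 1.37 CPM (SD, n = 4). Cd55 fell in Model against Ctrl, with a log2 fold change of -1.33 (SE 0.33, edgeR adjusted P = 0.00549), and an exact two-sided permutation test of the CPM gave P = 0.0571, where the smallest value that 4 mice against 4 can give is 0.0286. It was called under all 21 alternatives run, with log2 fold changes from -1.81 to -1.10, and without Ctrl 4 the value was -1.54. In YHY against Ctrl it fell by 1.68 on the log2 scale (SE 0.34, adjusted P = 0.000709), a 3.19-fold lower level with no overlap between the groups (exact permutation P = 0.0286). YHY against Model gave -0.35 (SE 0.34, adjusted P = 0.545), and all 4 YHY mice lay within the range of the Model mice. Without Model 1 that last value turned to 0.09. Cd55 reads are little shared with its paralog Cd55b, which reached at most 1 count in any mouse and whose transcripts hold 4.19% of the 100-base windows of Cd55.

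Cd59a (ENSMUSG00000032679, chr2:103926146-103945699 in GRCm39, plus strand) measured 50.5, 46.8, 57.0 and 61.3 CPM in Ctrl 1 to Ctrl 4, 95.4, 117.6, 111.8 and 138.8 CPM in Model 1 to Model 4, and 116.1, 85.2, 108.5 and 82.4 CPM in YHY 1 to YHY 4. All 8 db/db mice were above all 4 Ctrl mice, and the treated and untreated db/db mice overlapped. The means were 53.9 ± 6.47, 115.9 ± 17.9 and 98.1 ± 16.8 CPM (SD, n = 4). Cd59a rose in Model against Ctrl by a log2 fold change of 1.10 (SE 0.16, edgeR adjusted P = 0.000108, exact permutation P = 0.0286), and it was called under all 21 alternatives, with values from 0.66 under library size alone to 1.21 under upper-quartile scaling. In YHY against Ctrl it was 1.82-fold higher, a log2 fold change of 0.86 (SE 0.16, adjusted P = 0.000382), and with library size alone this was 0.45 and no longer called (adjusted P = 0.116). YHY against Model gave -0.24 (SE 0.16, adjusted P = 0.350). Its paralog Cd59b shares 0.276% of the 100-base windows of Cd59a, so few reads can be split between them. Cd59b pointed the other way in Model against Ctrl, with a log2 fold change of -0.97 (SE 0.39, adjusted P = 0.0599) that missed the limit in edgeR, was called in 2 of 12 fits without 1 mouse (adjusted P down to 0.0198) and was called by DESeq2.

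Over the 12 mice Cd55 and Cd59a were opposed, with a Pearson r of -0.81 on log2(CPM + 1), and within groups, after group means were subtracted, r was -0.37. The mice share their groups, so the larger value describes the split between Ctrl and db/db. In a bulk kidney library, fewer cells of a type and less RNA per cell cannot be told apart, and this holds for each gene described here. Markers of several cell types were called in Model against Ctrl, among them 4 of 8 proximal tubule markers lower and 0 higher, 3 of 5 erythroid markers lower and 1 higher, 2 of 5 mesangial, pericyte and smooth muscle markers higher and 0 lower, 1 of 3 parietal epithelium markers higher and 0 lower, 1 of 3 loop of Henle and macula densa markers lower and 0 higher, 1 higher and 1 lower of 7 distal tubule and collecting duct markers, 1 of 5 tested lymphocyte and plasma cell markers lower and 0 higher, the 1 tested adrenal cortex marker higher, and 1 of 5 endothelial markers higher and 0 lower. Over all genes tested 19.6% were called higher and 18.5% lower. A further list of cell type markers, with members called higher and 0 called lower in that comparison, is not counted in this report. The part of all these markers in the Cd55 and Cd59a differences was not tested.

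**Figure D2:**
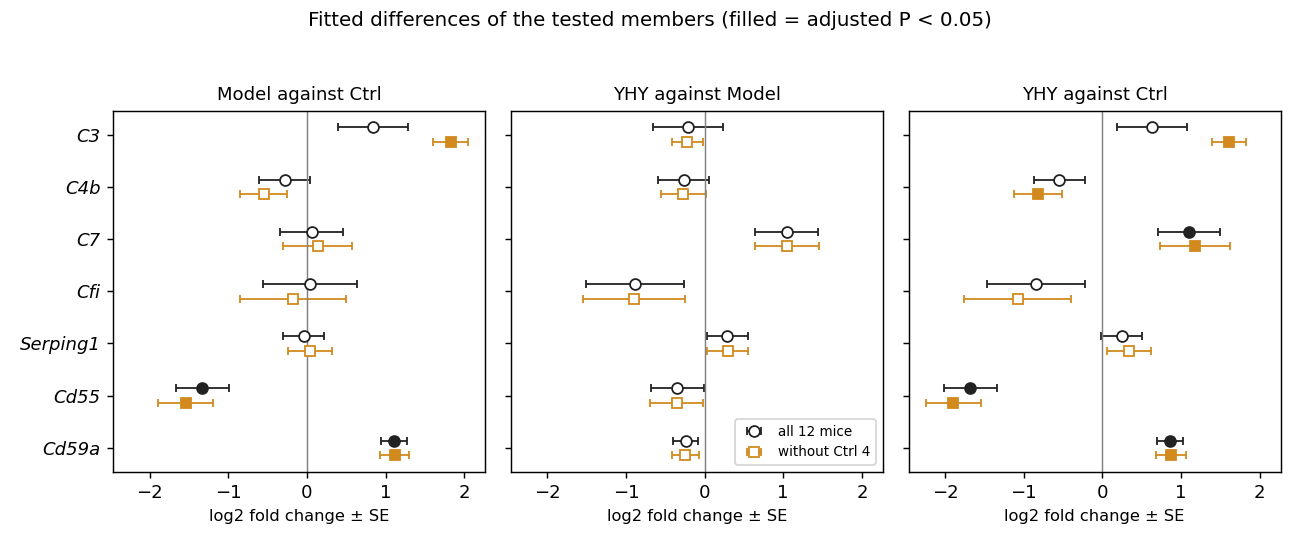
Log2 fold change with its standard error for the 7 tested members in the 3 comparisons, from all 12 mice (circles) and without Ctrl 4 (squares), with filled symbols for an adjusted P below 0.05. Cd55 and Cd59a are filled in both comparisons with Ctrl, and C3 is filled only without Ctrl 4.

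C3, on which all activation routes converge, was the one of the 7 tested members whose value in Model against Ctrl moved most when 1 mouse was left out. Its promoter is shown because C3 and the genes that were high beside it in Ctrl 4 include known acute phase genes, and the window holds the rarest of the motifs searched. The sequence comes from RefSeq (GRCm38.p6, chr17:57228087-57228386, minus strand), with the C/EBP-type match starting 45 bases before the start and the TATA box at base 15 after it.
C3: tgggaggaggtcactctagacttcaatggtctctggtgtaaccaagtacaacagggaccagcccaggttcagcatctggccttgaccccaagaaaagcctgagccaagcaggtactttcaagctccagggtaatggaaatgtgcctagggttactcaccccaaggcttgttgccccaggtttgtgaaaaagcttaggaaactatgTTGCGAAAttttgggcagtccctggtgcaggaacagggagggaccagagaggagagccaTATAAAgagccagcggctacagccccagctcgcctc
A match to these letters describes the sequence and does not show that a factor binds there. C/EBP factors are known regulators of acute phase genes in the liver.

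C3 (ENSMUSG00000024164, chr17:57510970-57535136 in GRCm39, minus strand) measured 17.4, 16.6, 13.3 and 82.3 CPM in Ctrl 1 to Ctrl 4, 72.5, 72.4, 48.8 and 38.4 CPM in Model 1 to Model 4, and 48.5, 45.3, 55.2 and 51.8 CPM in YHY 1 to YHY 4. Ctrl 4 was the highest of all 12 mice, and the other 3 Ctrl mice were the lowest. The means were 32.4 ± 33.3, 58.0 ± 17.2 and 50.2 ± 4.28 CPM (SD, n = 4). With all mice C3 was not called in Model against Ctrl, at a log2 fold change of 0.84 (SE 0.44, edgeR adjusted P = 0.148, exact permutation P = 0.229), nor in YHY against Ctrl, at 0.63 (adjusted P = 0.250), nor in YHY against Model, at -0.21 (SE 0.44, adjusted P = 0.809). Without Ctrl 4 it was called in Model against Ctrl at 1.83 (SE 0.22, adjusted P = 4.72e-05) and in YHY against Ctrl at 1.61 (adjusted P = 3.71e-05), and an exact permutation of the 4 Model against the 3 other Ctrl mice gave P = 0.0571. Over the 21 alternatives the Model against Ctrl value ran from 0.34 to 1.83 and its adjusted P from 4.72e-05 to 0.585, with 2 calls, the other being 0.81 without a filter on low counts (adjusted P = 0.0283).

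The 3 other Ctrl mice averaged 15.8 ± 2.19 CPM of C3, and Ctrl 4 was 5.22 times that mean. The lowest of the 8 db/db mice, at 38.4 CPM, was 2.21 times the highest of these 3 Ctrl mice. Ranked by how far Ctrl 4 rose above the next Ctrl mouse, C3 stood at place 3 of 12854 genes with a log2 gap of 2.18. Cyp4a14, a fatty acid hydroxylase, had the widest gap (4.44). Lcn2 (1.86), Fgg (1.39) and S100a9 (1.27), which are known to rise in acute phase or injury responses, were also among the 15 widest gaps. These genes were picked after their values were seen, and the source of the Ctrl 4 pattern was not tested.

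Because the liver is the main source of plasma C3, hepatocyte markers are given beside it. The 7 markers summed to 351, 445, 357 and 595 CPM in Ctrl 1 to Ctrl 4, 356, 393, 242 and 340 CPM in Model, and 226, 288, 189 and 384 CPM in YHY. The sum was highest in Ctrl 4, as C3 was. Model 3, Model 4, YHY 1, YHY 2 and YHY 3 lay below every Ctrl mouse, and the other db/db mice lay within the range of the Ctrl mice. Serpina1a, which mouse kidney is also known to express, was the most abundant at 103 FPKM, and Alb averaged 2.69, 5.14 and 2.86 FPKM in Ctrl, Model and YHY. At most 1 of the 7 was at 0 in any mouse. In Model against Ctrl 2 were called higher and 1 lower of 6 tested, beside 19.6% and 18.5% of all genes. Their part in the C3 values was not tested.

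The alternative pathway enzymes were close to the detection limit. Cfb, which supplies the catalytic part of that pathway's C3-cleaving enzyme (ENSMUSG00000090231, chr17:35075350-35081494 in GRCm39, minus strand), had 13, 2, 17 and 23 counts in Ctrl 1 to Ctrl 4, 0, 0, 6 and 2 in Model 1 to Model 4, and 0, 1, 6 and 6 in YHY 1 to YHY 4. Ctrl mice other than Ctrl 2 held more counts than any db/db mouse, but with Ctrl 2 the groups overlapped. On the CPM scale the exact permutation test gave P = 0.0857 for Model against Ctrl, 0.743 for YHY against Model and 0.114 for YHY against Ctrl. Without a filter on low counts the log2 fold change in Model against Ctrl was -1.89 (adjusted P = 0.295), and of the fits without 1 mouse in which Cfb passed the filter the one without Model 3 gave the lowest adjusted P (-3.42, adjusted P = 0.0711). Cfb shares 6107 bases of its span on the same strand with Gm20547, which is listed at 0 counts in all mice. How the counting treated reads that fall on both genes is not given in the sources used here, so Cfb may be undercounted in every library.

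Cfd, or adipsin, is the protease that activates factor B and is made mainly by fat cells (ENSMUSG00000061780, chr10:79726687-79728489 in GRCm39, plus strand). Its counts were 4, 0, 0 and 6 in Ctrl 1 to Ctrl 4, 0 in all 4 Model mice, and 6, 0, 8 and 6 in YHY 1 to YHY 4. A count of 0 in Model allows up to 0.0966 to 0.143 CPM per mouse (3 counts, counting error only), and the positive mice lay at 0.0961 and 0.137 CPM in Ctrl and at 0.229 to 0.298 CPM in YHY. The exact permutation test of CPM gave P = 0.429 for Model against Ctrl, 0.143 for YHY against Model and 0.2 for YHY against Ctrl. Without a filter on low counts edgeR gave a log2 fold change of 5.51 in YHY against Model (unadjusted P = 0.00942, adjusted P = 0.0899) and -3.91 in Model against Ctrl (unadjusted P = 0.0475, adjusted P = 0.153), and DESeq2 gave 4.65 (unadjusted P = 0.0236, no adjusted P) and -2.94 (adjusted P = 0.288), so Cfd was not called, at 8 counts or fewer in every mouse. The defining adipocyte markers Adipoq, Lep, Retn and Plin1 reached at most 10, 16, 8 and 4 counts in any mouse. The sum of 7 adipocyte markers, led by Fabp4 at 12.8 FPKM, lay between 66.9 and 89.7 CPM in Ctrl, 75.8 and 85.9 CPM in Model and 58.1 and 92.4 CPM in YHY, with up to 4 of the 7 at 0 in a mouse. Of the 3 tested, edgeR and DESeq2 called 0 in Model against Ctrl (0 at an unadjusted P below 0.05), where edgeR called 19.6% of all genes higher and 18.5% lower. Both called 1 lower in YHY against Model, beside 7.62% of all genes by edgeR. The part of these markers in the Cfd values was not tested.

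Cfp, or properdin, which stabilises the alternative pathway enzyme, is the fourth gene of that pathway and not a member. It averaged 1.84, 6.52 and 6.54 FPKM in Ctrl, Model and YHY and rose in Model against Ctrl (log2 fold change 1.82, SE 0.28, edgeR adjusted P = 0.000131), with no overlap between Ctrl and Model. Of the 4 alternative pathway genes 2 were tested, Cfp and C3, and Cfp was the 1 called, beside 19.6% of all genes tested called higher in Model against Ctrl.

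C4b, which forms part of the C3-cleaving enzyme of the classical and lectin pathways (ENSMUSG00000073418, chr17:34947354-34962856 in GRCm39, minus strand), measured 16.0, 14.6, 9.48 and 6.12 CPM in Ctrl 1 to Ctrl 4, 6.60, 15.5, 10.8 and 5.30 CPM in Model 1 to Model 4, and 8.89, 8.68, 6.25 and 7.87 CPM in YHY 1 to YHY 4. The groups overlapped throughout, and Ctrl 4 was the lowest Ctrl mouse. The log2 fold change was -0.28 (SE 0.32, edgeR adjusted P = 0.526) in Model against Ctrl, -0.27 (SE 0.33, adjusted P = 0.647) in YHY against Model and -0.55 (SE 0.33, adjusted P = 0.177) in YHY against Ctrl. The last was called in 2 of 21 alternatives, at -0.82 without Ctrl 4 (adjusted P = 0.0381) and at -0.96 with library size alone (adjusted P = 0.0123). The value of YHY against Model turned to 0.07 without Model 2. C4b shares 15.2% of its 100-base windows with its neighbour C4a, which is annotated as a non-coding RNA, so reads of these windows could count for either gene. C4a itself fell in Model against Ctrl (log2 fold change -1.08, SE 0.40, adjusted P = 0.0450) from a mean of 0.894 to 0.424 FPKM, a call lost in 6 of 12 fits without 1 mouse (Ctrl 1, Ctrl 2 or any of the 4 Model mice), where its adjusted P reached 0.121, and with upper-quartile scaling (0.0658).

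Among the genes around C4b, calls in Model against Ctrl went in both directions, and no test of the group was run. C1qa, C1qb and C1qc, the 3 chains of C1q, which binds antibody complexes, fell in Model against Ctrl with log2 fold changes of -1.08 (SE 0.23, adjusted P = 0.00147), -1.003 (SE 0.27, adjusted P = 0.00772) and -1.62 (SE 0.29, adjusted P = 0.000441). Their levels in Ctrl, Model and YHY were 16.5, 7.80 and 10.5 FPKM for C1qa, 14.4, 7.18 and 10.7 FPKM for C1qb, and 5.56, 1.81 and 2.66 FPKM for C1qc. For each chain every Model mouse was below every Ctrl mouse. Masp2, a protease of the lectin pathway, fell from 2.38 to 0.0763 FPKM (log2 fold change -4.90, SE 0.42, adjusted P = 1.82e-06) and stayed at 0.108 FPKM in YHY. C1s2, a C1s protease copy, was called higher at 1.07 (SE 0.38, adjusted P = 0.0356), and this call was lost without any of 6 mice (each Ctrl mouse, Model 2 or Model 3; adjusted P up to 0.126) and with library size alone (0.229). The other C1r and C1s genes tested were not called in that comparison. Of 18 classical and lectin pathway genes 14 were tested. In Model against Ctrl 2 were called higher and 5 lower, beside 19.6% and 18.5% of all genes tested. The gene called higher beside C1s2 lost its call without any of 6 mice (adjusted P up to 0.142) and with library size alone (0.277). The calls of the 3 C1q chains and Masp2 held in all 12 fits without 1 mouse. In YHY against Model 0 of the 14 were called by edgeR, beside 5.63% of all genes higher and 7.62% lower. DESeq2 also called 0 there, and 0 were at an unadjusted P below 0.05.

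C1q is made largely by macrophages, so their markers are given beside it. Of 8 macrophage markers, all tested, 2 were called higher and 0 lower in Model against Ctrl, beside 19.6% and 18.5% of all genes tested. Cd68 (log2 fold change 1.05) and Cd14 (1.45) are named only because they were called, and do not stand for the list. The median log2 fold change of all 8 was 0.09, beside 0.04 over all genes, and 4 were at an unadjusted P below 0.05. In YHY against Model 0 were called by edgeR or DESeq2, with 2 at an unadjusted P below 0.05. They summed to 206, 142, 203 and 169 CPM in Ctrl 1 to Ctrl 4, 206, 222, 272 and 333 CPM in Model, and 362, 537, 237 and 198 CPM in YHY, with Lyz2 the most abundant at 111 FPKM and none at 0 in any mouse. Their part in the C1q values was not tested.

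C7 joins the nascent membrane pore after C5b and C6. Its promoter is shown because C7 was the only member called in YHY against Model under any alternative run. The RefSeq sequence lies at chr15:5063724-5064023 on the minus strand of GRCm38.p6 and holds a STAT-type match starting 164 bases before the start and the TATA box on the reverse strand 6 bases before it.
C7: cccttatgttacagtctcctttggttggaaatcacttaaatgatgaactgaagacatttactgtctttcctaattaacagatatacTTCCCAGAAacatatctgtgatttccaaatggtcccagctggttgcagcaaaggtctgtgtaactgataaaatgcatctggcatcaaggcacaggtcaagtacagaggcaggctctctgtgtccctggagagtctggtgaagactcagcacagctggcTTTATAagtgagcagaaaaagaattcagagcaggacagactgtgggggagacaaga
The same 6 motifs were searched on both strands, and C3 and C7 shared only the TATA letters, on opposite strands.

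C7 (ENSMUSG00000079105, chr15:5018244-5093222 in GRCm39, minus strand) measured 4.18, 10.3, 4.46 and 8.70 CPM in Ctrl 1 to Ctrl 4, 4.28, 8.15, 10.3 and 6.16 CPM in Model 1 to Model 4, and 24.2, 18.5, 10.8 and 5.97 CPM in YHY 1 to YHY 4. YHY 1 and YHY 2 stood above all other mice, YHY 3 was just above the highest Ctrl and Model mice, and YHY 4 lay among them. The means were 6.91 ± 3.06, 7.21 ± 2.58 and 14.8 ± 8.06 CPM (SD, n = 4). In YHY against Model the log2 fold change was 1.04 (SE 0.40, edgeR adjusted P = 0.0959, exact permutation P = 0.143), and in Model against Ctrl it was 0.06 (SE 0.40, adjusted P = 0.921). C7 was called in YHY against Model in 4 of 21 alternatives, by DESeq2 (1.06, adjusted P = 0.0478), without a filter on low counts (1.03, adjusted P = 0.0143), with 9 mice (without Ctrl 2, Model 1 and YHY 4; 1.14, adjusted P = 0.0451) and without YHY 4 (1.30, adjusted P = 0.0232), over a range of 0.70 to 1.30 and adjusted P of 0.0143 to 0.282. In this comparison DESeq2 called more genes than edgeR, 3123 beside 2311. In YHY against Ctrl C7 was called 2.15-fold higher, at 1.10 (SE 0.40, adjusted P = 0.0290, exact permutation P = 0.114).

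This C7 call in YHY against Ctrl did not hold under every alternative. Among others it was lost with library size alone (0.70, adjusted P = 0.139), with only the 8 mice compared (1.08, adjusted P = 0.0522), without Ctrl 1 (0.87, adjusted P = 0.107), without Ctrl 3 (0.89, adjusted P = 0.106), without YHY 1 (0.76, adjusted P = 0.124) and without YHY 2 (0.98, adjusted P = 0.0751). The 2 mice with most C7, YHY 1 and YHY 2, held the highest sums of fibroblast markers and also of the macrophage markers given beside C1q, and YHY 1 held the highest sums of endothelial (256 CPM) and urothelial markers (61.7 CPM). Ctrl 4, at 8.70 CPM of C7, had the second lowest fibroblast sum. The 5 fibroblast markers summed to 164, 139.9, 134.9 and 109.9 CPM in Ctrl 1 to Ctrl 4, 142.7, 238.8, 181.9 and 148.1 CPM in Model, and 297, 314, 198 and 103 CPM in YHY 1 to YHY 4. Dcn was the most abundant at 6.89 FPKM, and none were at 0. In Model against Ctrl 1 of 5 (Pdgfra, 0.75) was called higher, beside 19.6% of all genes tested. In YHY against Model 0 were called by edgeR or DESeq2, with 2 at an unadjusted P below 0.05. Other marker lists had edgeR calls in YHY against Model, where 5.63% of all genes were called higher and 7.62% lower. Higher were 2 of 5 tested lymphocyte and plasma cell, 2 of 5 erythroid and 1 of 5 mesangial, pericyte and smooth muscle markers. Lower were 2 of 7 distal tubule and collecting duct and 1 of 3 parietal epithelium markers. The lymphocyte and plasma cell sums were 119, 24.2, 124 and 8.91 CPM in YHY 1 to YHY 4, beside 7.79 to 17.4 CPM in Model. The part of these cell types in the C7 values was not tested.

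**Figure D3:**
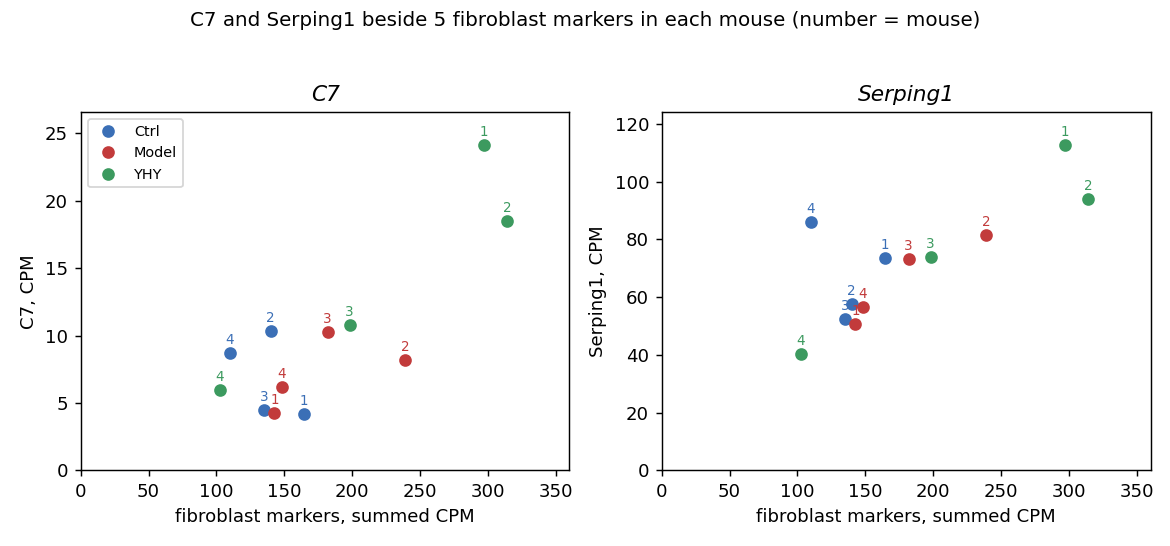
CPM of C7 (left) and Serping1 (right) on the y axis against the summed CPM of 5 fibroblast markers on the x axis, 1 point per mouse, coloured by group and numbered by mouse. YHY 1 and YHY 2 lie at the upper right in both panels and YHY 4 at the lower left.

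Among 7 terminal pathway genes 4 were tested. In Model against Ctrl 0 were called higher and 2 lower, beside 19.6% and 18.5% of all genes tested. C8a, a chain of the pore protein C8, averaged 6.35, 3.31 and 4.36 FPKM in Ctrl, Model and YHY (Model against Ctrl -0.94, SE 0.31, edgeR adjusted P = 0.0233), a call lost without Model 2 or Model 3, where adjusted P reached 0.0574. C8g, another chain of C8, averaged 14.0, 8.86 and 5.76 FPKM (-0.65, SE 0.25, adjusted P = 0.0486), a call lost without any of 6 mice (Ctrl 2, Ctrl 3, Model 2, Model 3, Model 4 or YHY 2), where it reached 0.137, and with upper-quartile scaling (0.0830). In YHY against Model edgeR called 0 of the 4, beside 5.63% of all genes higher and 7.62% lower. Of the 4, 2 were at an unadjusted P below 0.05 there, and DESeq2 called 1, C7.

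Serping1, the C1 inhibitor, inactivates the proteases that start the classical and lectin pathways (ENSMUSG00000023224, chr2:84595731-84605788 in GRCm39, minus strand). It measured 73.7, 57.6, 52.4 and 86.1 CPM in Ctrl 1 to Ctrl 4, 50.9, 81.5, 73.3 and 56.7 CPM in Model 1 to Model 4, and 112.8, 94.1, 73.8 and 40.1 CPM in YHY 1 to YHY 4. The YHY group held both the highest and the lowest mouse, and the groups overlapped. The means were 67.5 ± 15.4, 65.6 ± 14.2 and 80.2 ± 31.1 CPM (SD, n = 4). No comparison was called by edgeR, with log2 fold changes of -0.04 (SE 0.26, adjusted P = 0.918) in Model against Ctrl, 0.29 (SE 0.26, adjusted P = 0.502) in YHY against Model and 0.25 (SE 0.26, adjusted P = 0.446) in YHY against Ctrl. Serping1 and C7 varied together, with r = 0.74 over the 12 mice and 0.78 within groups on log2(CPM + 1), and this was the highest r among the 36 pairs of members.

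Cfi, the protease that cuts C3b and C4b into inactive pieces, was measured near the lower end of the tested genes (ENSMUSG00000058952, chr3:129629533-129668981 in GRCm39, plus strand). It lay between 0.546 and 1.47 CPM in Ctrl (23 to 47 counts), between 0.171 and 1.58 CPM in Model (4 to 49 counts) and between 0.221 and 0.697 CPM in YHY (4 to 18 counts). The groups overlapped, and the standard errors were the widest of the 7 tested members. The log2 fold change was 0.04 (SE 0.60, edgeR adjusted P = 0.967) in Model against Ctrl, -0.88 (SE 0.63, adjusted P = 0.381) in YHY against Model and -0.84 (SE 0.62, adjusted P = 0.274) in YHY against Ctrl. Cfi and Cd55 had r = 0.59 over the 12 mice and 0.74 within groups. A non-coding gene on the opposite strand overlaps 2994 bases of Cfi with at most 22 counts in a mouse, and whether the counting used strand is not given in the sources used here.

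Among 11 soluble regulators 6 were tested, 0 were called higher and 1 lower in Model against Ctrl, beside 19.6% and 18.5% of all genes tested. That gene was Clu, or clusterin, which keeps terminal complexes out of membranes and is known as a tubule injury gene, at 60.5, 21.6 and 14.6 FPKM in Ctrl, Model and YHY (-1.49, SE 0.36, edgeR adjusted P = 0.00424). Cpn1, the catalytic chain of the carboxypeptidase that trims the C3a and C5a peptides, was called lower in YHY against Model (-1.19, SE 0.30, adjusted P = 0.0169), at 20.0, 24.04 and 10.5 FPKM. The call was lost without Model 1 (-0.97, adjusted P = 0.0501).

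Among 9 membrane-bound regulators 8 were tested, with 3 higher, Cd59a included, and 3 lower, Cd55 included, in Model against Ctrl by edgeR (3 and 4 by DESeq2). Beside these edgeR counts stand 19.6% higher and 18.5% lower of all genes tested. Cr1l, a rodent inhibitor also called Crry, fell from 3.32 to 1.66 FPKM (-0.998, SE 0.22, edgeR adjusted P = 0.00223) and was at 1.68 FPKM in YHY. Thbd, or thrombomodulin, an endothelial anticoagulant that also aids C3b inactivation, fell from 3.73 to 2.13 FPKM (-0.81, SE 0.24, adjusted P = 0.0159), a call lost without Ctrl 4 or Model 4, where adjusted P reached 0.0561. Susd4 rose from 1.08 to 1.95 FPKM (0.85, SE 0.24, adjusted P = 0.0113), a call lost without Ctrl 1 (0.0544) and with library size alone (0.314). In YHY against Model 1 of the 8 was called higher and 0 lower, beside 5.63% and 7.62% of all genes. That gene was at a level below 1 FPKM, and its call was lost without any of 5 mice (Model 1, Model 3, Model 4, YHY 2 or YHY 3; adjusted P up to 0.0749).

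Among 9 complement receptors 7 were tested. In Model against Ctrl 1 was called higher and 0 lower, beside 19.6% and 18.5% of all genes tested. In YHY against Model 0 were called by edgeR or DESeq2, beside 5.63% of all genes higher and 7.62% lower by edgeR. There 1 of the 7 was at an unadjusted P below 0.05. Itgb2, the shared chain of complement receptors 3 and 4 on leukocytes, rose from 1.49 to 2.61 FPKM (0.81, SE 0.26, edgeR adjusted P = 0.0213), a call lost without any of 5 mice (Ctrl 2, Ctrl 3, Ctrl 4, Model 3 or Model 4; adjusted P up to 0.0755) and with library size alone (0.275).

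**Figure D4:**
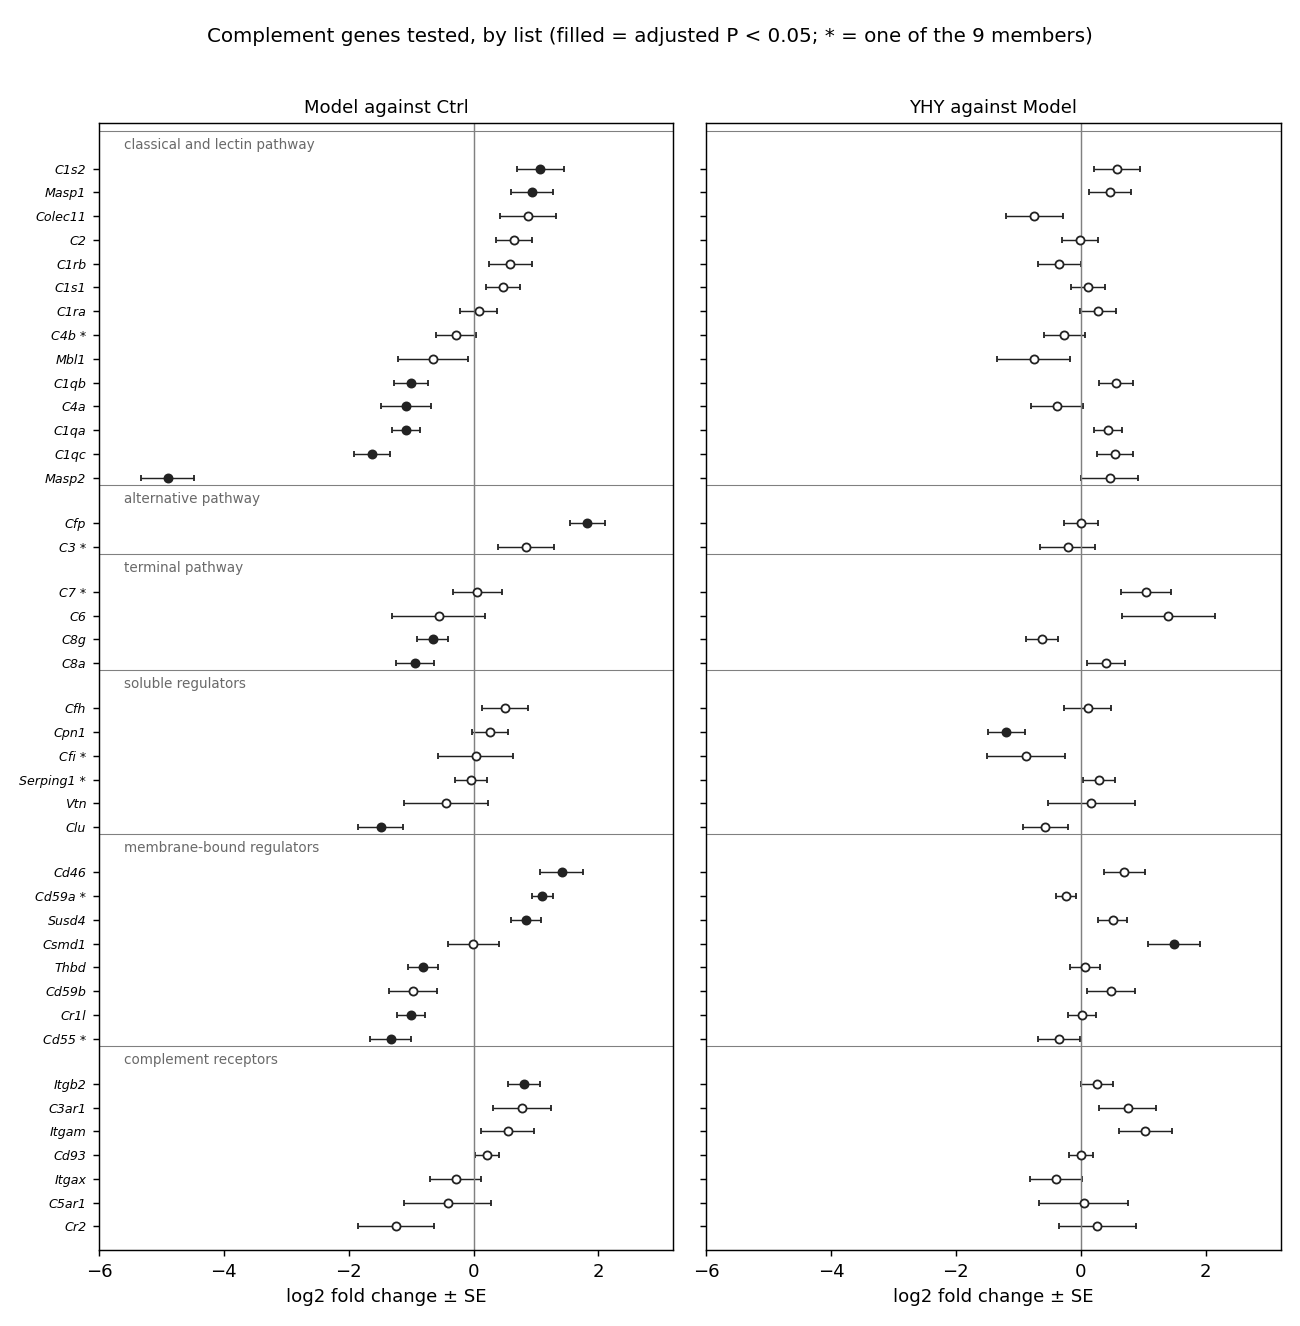
Log2 fold change with its standard error for the 41 tested complement genes, grouped by role, in Model against Ctrl (left) and YHY against Model (right), with filled symbols for an adjusted P below 0.05 and an asterisk at the members. The left panel holds 7 filled genes above 0 and 11 below, and the right panel 1 above and 1 below.

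Over the 6 complement lists, 41 of 58 genes were tested and 4 (Colec10, Fcnb, Cpn2 and Cd55b) had at most 3 counts in every mouse. In Model against Ctrl 7 of the 41 were called higher and 11 lower, beside 19.6% and 18.5% of all genes tested, with a median log2 fold change of -0.00, beside 0.04 over all genes, and with library size alone these counts were 3 and 13. The other 34 tested genes, without the members, gave 6 higher and 10 lower. Leaving out 1 mouse at a time moved the counts to between 4 and 8 higher and between 8 and 12 lower. In YHY against Model edgeR called 1 higher and 1 lower, beside 5.63% and 7.62% of all genes, and DESeq2 2 higher and 1 lower, and the median was 0.12, beside 0.02 over all genes. Without Model 1 these edgeR counts were 0 and 0, and without YHY 4 they were 3 and 2. In YHY against Ctrl 11 were higher and 10 lower, beside 26.1% and 24.2% of all genes, and with library size alone 7 and 15.

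Genes of the acute phase and cytokine response, which are known to control or accompany complement synthesis, were mixed in direction. Of 21 such genes 14 were tested and 1 (Saa2) had at most 3 counts in every mouse. In Model against Ctrl 5 were called higher and 2 lower, beside 19.6% and 18.5% of all genes tested. In YHY against Model 2 were called higher and 0 lower, beside 5.63% and 7.62% of all genes. Tnf, an inflammatory cytokine, rose from 0.712 to 3.29 FPKM (2.22, SE 0.44, edgeR adjusted P = 0.00103). Cebpb, a C/EBP factor, rose from 11.2 to 23.1 FPKM (1.05, SE 0.25, adjusted P = 0.00375), Nfkbia, the NF-kB inhibitor, from 11.4 to 20.2 FPKM (0.82, SE 0.21, adjusted P = 0.00706) and Lbp, which binds bacterial lipopolysaccharide, from 0.548 to 1.32 FPKM (1.26, SE 0.32, adjusted P = 0.00620). With library size alone Nfkbia (adjusted P = 0.243) and Lbp (0.0628) were no longer called. Cebpd, a related factor, rose from 1.87 to 3.03 FPKM (0.70, SE 0.24, adjusted P = 0.0293), a call lost without any of 5 mice (Ctrl 1, Ctrl 3, Ctrl 4, Model 1 or Model 4; adjusted P up to 0.135) and with library size alone (0.429).

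Fga, a fibrinogen chain, fell from 5.77 to 1.35 FPKM in Model against Ctrl (-2.10, SE 0.34, edgeR adjusted P = 0.000236) and was called higher in YHY against Model at 3.35 FPKM (1.30, SE 0.34, adjusted P = 0.0201), a call lost without Model 2, Model 3 or YHY 2, where adjusted P reached 0.0700. Lcn2, which tubules release on injury, averaged 3.08, 1.43 and 6.02 FPKM, the first resting on Ctrl 4 (21.1 CPM, beside at most 5.07 CPM in the other Ctrl mice), and was called higher in YHY against Model (2.06, SE 0.62, adjusted P = 0.0381), a call lost without any of 6 mice (each Model mouse, YHY 1 or YHY 3; adjusted P up to 0.116) and with library size alone (0.0628). C3 itself did not pass the test in either comparison with all mice.

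For each member the gene with the most similar pattern was taken by Pearson r of log2(CPM + 1) over the 12 mice, among genes with a mean count of at least 50. C3 was closest to Elmo2 (r = 0.88, 0.81 within groups), C4b to Poc1b (0.84, 0.84 within groups) and C7 to Col18a1, a basement membrane collagen (0.88, 0.84 within groups). Serping1 was closest to Tmem119 (0.91, 0.93 within groups), Cd55 to Ndfip1 (0.98, 0.95 within groups) and Cd59a to Pbxip1 (0.97, 0.89 within groups). The low-count members were closest to Zfp719 for Cfb (0.93), Hoxb8 for Cfd (0.94) and Psph for Cfi (0.90). Each is the highest of 12853 or 12854 values over mice that share their groups and library composition, and it describes a pattern only.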

How the data were processed

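The authors deposited raw read counts per gene for 12 mice, with gene names, GRCm39 positions and gene lengths. Their notes list FastQC 0.11.9, Trimmomatic 0.39, HISAT2 2.2.1, SAMtools 1.12, featureCounts 2.0.1 and DESeq2 1.34.0 in R 4.1.2. The annotation release and the use of strand are not given in the sources used here. Columns were assigned to mice by the group initial and number. The 12 columns per mouse in the deposited comparison tables, with the authors' fold changes, P values and KEGG results, were not used. Counts were fitted for all 12 mice without covariates in R 4.3.3 with edgeR 4.0.16 (limma 3.58.1), using filterByExpr, TMM factors and the two-sided quasi-likelihood test with Benjamini-Hochberg adjustment over 17431 genes. Exact two-sided permutation tests used CPM of 4 mice against 4 (70 splits). FPKM was CPM per kilobase of the deposited gene length. DESeq2 1.42.0, other scalings, filters and sample sets and the removal of each mouse were alternatives. Both tests were tried on 1 simulated data set, where DESeq2, unlike edgeR, made more false calls than its limit allows. Its counts were drawn with edgeR's own estimates of the spread, so this outcome does not rank the tests on the real data. Python 3.11.15, numpy 2.4.6 and matplotlib 3.10.9 drew figures and read sequences. Paralog windows came from GENCODE vM21 transcripts.

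The members and gene lists were chosen with earlier results of these data known. Named genes were the 9 members, genes of the lists called in Model against Ctrl or YHY against Model with at least 1 FPKM in some group, the paralogs C4a, Cd55b and Cd59b, the most abundant and defining cell type markers, and the most similar gene of each member; some genes that meet this rule are not reported here. Cd68, Cd14, Pdgfra and the genes high in Ctrl 4 were named after their values were seen. The NF-kB-type motif was narrowed after a wider form matched many promoters.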

Additional observations from a re-analysis of the deposited data

Results flagged for a closer look

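Among 27 groups of 4 mice (9 members in 3 groups), 26 of which held differing values, a single mouse lay far from the rest in 2, judged by its gap to the nearest mouse as a share of the group's range, against Dixon's 95% limit. Chance flags about 1 in 20 groups. C3 in Ctrl 4, at 82.3 CPM beside 13.3 to 17.4 CPM in the other Ctrl mice, had a gap of 0.94 of the range. Cd55 in Ctrl 4, at 8.51 CPM beside 14.3 to 15.4 CPM in the other Ctrl mice, had a gap of 0.831 of the range. Both came from the same mouse.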

How the results depend on the processing

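Of 438 log2 fold changes of members recomputed under an alternative, 400 kept their direction and side of the limit, 8 lost and 9 gained a call, and 21 turned direction, all of the last uncalled in both settings. Leaving out 1 mouse gave 252 of these values, with 231 kept, 4 lost, 4 gained and 13 turned. Cd55 and Cd59a stayed called in Model against Ctrl under every alternative. In Model against Ctrl, Serping1 turned to 0.063 with upper-quartile scaling and 0.0037 with at least 10 counts in every mouse, Cfi to -0.33 with library size alone, -0.10 with 9 mice and -0.063 with the replicate block, and C7 to -0.40 with library size alone. Cd55 in YHY against Model turned to 0.19 with 9 mice, and Serping1 in YHY against Ctrl to -0.18 with library size alone. Leaving out 1 mouse, the ranges that crossed 0 were -0.48 to 0.40 for Cfi, -0.17 to 0.31 for C7 and -0.20 to 0.042 for Serping1 in Model against Ctrl, and -0.60 to 0.089 for Cd55 and -0.47 to 0.066 for C4b in YHY against Model.

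Members called in YHY against Model went from 0 to 1 (C7) with DESeq2, without a filter and with 9 mice, and ranged from 0 to 1 without 1 mouse. Members called in YHY against Ctrl ranged from 2 to 5 without 1 mouse, with C3, C4b, C7, Cd55 and Cd59a called without Ctrl 4. Genes called in YHY against Model went from 2311 to 1177 with library size alone and 1385 with the 8 mice compared, to 3123 with DESeq2, and without 1 mouse ranged from 1146 (without Model 3) to 2723 (without YHY 4). The cause was not tested.

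Mice of different groups share only a number: of 12 pairs with the same number, deviations from group means correlated at -0.23 to 0.19, 3 pairs exceeded 0.1, and 4 of 12 mice correlated best with their own number. With the replicate block, 6289, 1920 and 8424 genes and 2, 0 and 2 members were called in Model against Ctrl, YHY against Model and YHY against Ctrl, beside 6631, 2311 and 8762 genes and 2, 0 and 3 members, and C7 in YHY against Ctrl had an adjusted P of 0.0520; no other call of a member changed. Cfi has no value with at least 10 counts in every mouse. Cfd has values only with DESeq2 and without a filter, and Cfb has these, values with 9 mice and values without Ctrl 2 or any 1 Model or YHY mouse. With 4 mice a group, low counts and bulk tissue RNA, small differences could not be resolved. The 9 mice (Ctrl 1, 3 and 4, Model 2 to 4, YHY 1 to 3) are those behind the deposited group means.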
